A study of Arabidopsis thaliana with 30 samples.

Results

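AT3G01345, AT2G05914 and AT1G20490 are 3 Arabidopsis thaliana loci whose read counts lay near on or off between groups of plants. They were picked from the 32679 gene entries of the count tables for that contrast: AT3G01345 for VP16-02-003 and the VP16 pool 2 background, AT2G05914 for EAR-13-068 and VP16-05-014, and AT1G20490 for VP16-02-003. Their levels therefore chose them, and those levels are given here as a description without a test. RNA was sequenced from shoots in 30 libraries, 3 for each of 10 groups. The labels give the genotype of 5 groups as EAR, of 4 as VP16 and of 1 as Col-0, the common laboratory accession, and name no further allele, agent, promoter or age. EAR names a repression motif of plant proteins and VP16 an activation domain of viral origin, which in genome interrogation are joined to artificial zinc-finger proteins with arrays of fingers that differ from plant to plant. EAR-13-068, EAR-15-025, EAR-15-053, VP16-02-003 and VP16-05-014 are named lines, and EAR pools 13 and 15 and VP16 pools 2 and 5 are called pool backgrounds. Each line was matched to the pool whose number its name carries. The sources used here do not say how many plants or insertions a line or a pool library holds, or which sequences the fingers bind.

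Zinc-finger fusions bind short DNA motifs through their fingers and change transcription of nearby genes through the joined domain. In Arabidopsis, repeat-like loci are commonly kept silent by DNA methylation, which methyltransferases write with the help of small RNAs and which demethylases remove. AT3G01345 encodes an uncharacterized protein that the annotation links to hydrolysis of O-glycosyl compounds. AT2G05914 is a non-coding RNA gene on the strand opposite AT2G05915, which it overlaps. AT1G20490 belongs to the AMP-dependent synthetase and ligase family and is annotated with 4-coumarate-CoA ligase (4CL) activity. Enzymes of this family join carboxylic acids to coenzyme A, in the phenylpropanoid pathway for the 4CL enzymes and in jasmonate synthesis for OPCL1.

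In the TAIR10.1 assembly AT3G01345 covers chr3:129138-130749 on the plus strand in 1 exon of 1612 bases. AT2G05914 covers chr2:2263124-2264543 on the minus strand in 1 exon of 1420 bases. AT1G20490 covers chr1:7097211-7099892 on the minus strand, with 2212 exonic bases in 3 blocks. The authors' build is named TAIR10 and their tables carry no coordinates, so these positions and the sequences come from TAIR10.1 and its own annotation. The stretches just before the annotated gene starts are shown as the DNA in which transcription of each locus would be set, and no annotated gene overlaps them. That of AT3G01345 is chr3:128995-129137, plus strand, the whole 143 bases to the divergent gene AT3G01340. Those of AT2G05914 and AT1G20490 are chr2:2264544-2264793 and chr1:7099893-7100142, both 250 bases on the minus strand. Capitals mark CACGTG, the core of the G-box. They read, 5′ to 3′:
AT3G01345: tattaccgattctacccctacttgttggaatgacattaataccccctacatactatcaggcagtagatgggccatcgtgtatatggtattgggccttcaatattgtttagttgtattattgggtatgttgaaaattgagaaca
AT2G05914: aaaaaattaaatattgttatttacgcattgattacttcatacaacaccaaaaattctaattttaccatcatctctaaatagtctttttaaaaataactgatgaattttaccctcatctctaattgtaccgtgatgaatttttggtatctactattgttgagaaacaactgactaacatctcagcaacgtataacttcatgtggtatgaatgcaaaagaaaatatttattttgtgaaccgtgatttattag
AT1G20490: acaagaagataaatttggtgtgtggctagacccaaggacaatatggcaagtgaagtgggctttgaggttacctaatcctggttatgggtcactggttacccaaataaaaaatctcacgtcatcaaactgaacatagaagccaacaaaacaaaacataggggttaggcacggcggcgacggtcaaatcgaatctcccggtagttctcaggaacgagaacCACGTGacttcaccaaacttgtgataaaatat

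The 3 stretches differed in base composition, with a G and C share of 37.8% at AT3G01345, 27.2% at AT2G05914 and 43.6% at AT1G20490. They were searched on both strands for TATAAA and for CACGTG, which reads the same on either strand. The motifs were chosen after the sequences had been seen. TATAAA was in none of the 3, while it was present in 33.2% of 143-base and 47.7% of 250-base stretches before 26711 protein-coding genes. CACGTG was found at AT1G20490 only, starting 32 bases before the gene, and in 6.58% of 250-base and 4.72% of 143-base stretches. A match describes the letters of the window and is not a bound site.

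The libraries held from 10076308 to 40780331 reads on genes, the median being 19024898. Levels are given in CPM, the read count adjusted for library size with TMM scaling. A floor of 3 reads stood for 0.0749 to 0.309 CPM and covers counting error only. Shoot tissue was checked with light-harvesting and Rubisco genes: RBCS1A lay at 16164 to 23597 CPM in the 30 libraries, and the root-hair genes EXPA7 and COBL9 had 0 and 0 to 4 reads. An entry named VP16, which is no Arabidopsis gene, drew 3 reads in Col-0 and 8.8 ± 2.34 CPM in pool 2 (SD, n = 3), but also 7.45 ± 1.51 CPM in EAR-15-053, so it did not separate the fusion types. VP16-05-014 C stood apart from its replicates on the first principal component, at 44.7 against -23.2 and -25.3, near the pool 5 libraries at 21.4 to 40.3. Nothing in the labels says that replicates came from separate plants, so p-values measure the spread between these libraries, which may be technical. Genes were called at an adjusted p under 0.05 among 19566 tested in edgeR. Fewer expressing cells and less RNA per cell cannot be told apart in these bulk samples.

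AT3G01345 was abundant in VP16-02-003 and in the pool it is numbered after, and near the detection floor in the 24 other libraries. Replicates A, B and C of VP16-02-003 held 3028, 3554 and 3232 reads, or 238, 252 and 247 CPM. Those of the VP16 pool 2 background held 3392, 2885 and 679 reads, or 118, 81.3 and 33 CPM. All 3 line libraries lay above all 3 pool libraries. In the 24 others the level ran from 0 CPM in EAR pool 15 C through a median of 0.293 to 0.947 CPM in VP16-05-014 C, with 172 reads in all and 3 reads or fewer in 5 libraries. The lowest pool 2 library was thus 34.9 times the highest of the others. The locus was on in VP16-02-003 and in pool 2 and so not in a named line alone.

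**Figure D1:**
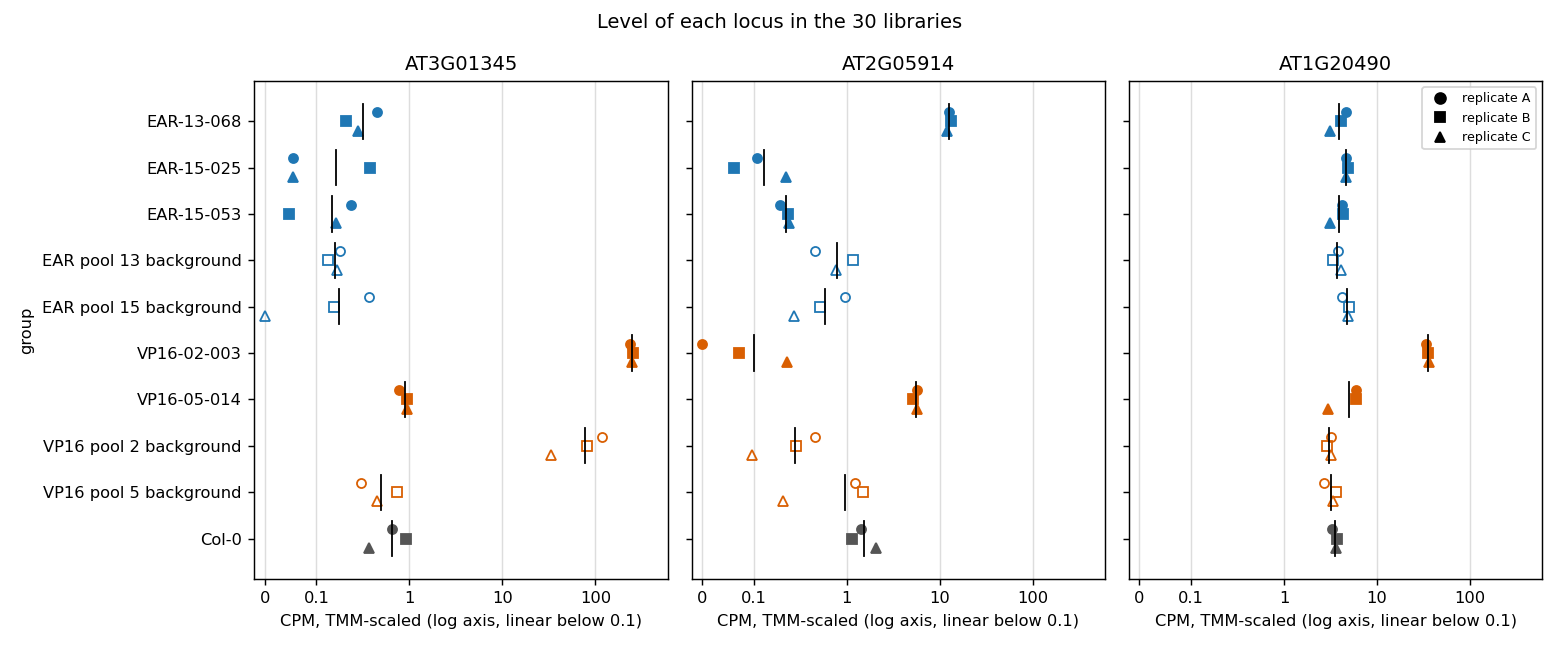
Level of AT3G01345, AT2G05914 and AT1G20490 in every library, in TMM-scaled CPM on a log axis that is linear below 0.1. Each point is a library, its shape gives the replicate, filled points are lines or Col-0, open points are pools, and the bar is the group mean. AT3G01345 reaches 238 to 252 CPM in VP16-02-003 and 33 to 118 CPM in pool 2, AT2G05914 is highest in EAR-13-068 and VP16-05-014, and AT1G20490 is never at 0.

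The group means of AT3G01345 ran from 246 ± 6.85 CPM in VP16-02-003 and 77.3 ± 42.5 CPM in pool 2 (SD, n = 3) to 0.149 ± 0.0964 CPM in EAR-15-053. VP16-05-014 came next after pool 2, at 0.89 ± 0.0927 CPM, then Col-0 at 0.648 ± 0.28 and pool 5 at 0.497 ± 0.221. EAR-13-068 was at 0.315 ± 0.125, EAR pool 15 at 0.176 ± 0.187, EAR-15-025 at 0.162 ± 0.185 and EAR pool 13 at 0.16 ± 0.0228 CPM. The top 3 groups did not overlap, and from VP16-05-014 down each group overlapped the next in the order. The mean in VP16-02-003 was 379 times and that in pool 2 119 times the Col-0 mean. Per kilobase of exon the locus stood at 152 CPM in VP16-02-003, above 97.3% of 19442 tested genes of known length, at 48 CPM in pool 2, above 89.9%, and at 0.402 CPM in Col-0, above 5.54%.

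The pool 2 libraries differed widely from each other at AT3G01345. Their levels were 47.9%, 33.1% and 13.4% of the VP16-02-003 mean in replicates A, B and C. The coefficient of variation was 54.9% in pool 2 and 2.79% in VP16-02-003. In pool 2 the median over the 3647 genes within 2-fold of its level was 8.4%. AT3G01345 was picked for its counts in these libraries, so this spread is a description without a test. The VP16 entry did not follow the same order, with 6.14, 10.5 and 9.72 CPM in pool 2 A, B and C. Its part in the spread was not tested.

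The 3 genes most alike to AT3G01345 over the 30 libraries were AT1G11170, AT5G62240 and AT3G20360, with Pearson r of 0.83, 0.82 and 0.82 on log2(CPM + 0.5). These correlations describe 30 libraries that share groups and carry no p. AT5G62240, annotated as a cell-cycle-regulated microtubule-associated protein, had 43, 59 and 76 reads in VP16-02-003, 28, 14 and 1 in pool 2 A, B and C, and 8, 1 and 6 in Col-0. AT3G20360, a TRAF-like family gene, had 19, 30 and 22 reads in the line and 9, 3 and 1 in the pool. AT1G11170, of the DUF707 family, lay at 6.3 to 8.78 CPM in the line and at 3.16, 2.42 and 1.94 CPM in pool 2 A, B and C. In all 3 genes replicate A was the highest and C the lowest of pool 2, as for AT3G01345, a resemblance that the choice by correlation favours.

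The tested neighbours of AT3G01345 were not called where it was high in pool 2, and hardly any other gene was called there. Between pool 2 and Col-0, 3 genes of 19566 were called, 0.0153%. AT3G01345 is among them by its choice, and nothing is read from that. The others were the VP16 entry and AT5G03380, a heavy-metal transport gene named after its value was seen, at a log2 fold change of 0.95 (edgeR adjusted p = 0.0106). The count was 93 without Col-0 A, 9 without pool 2 C and 104 with DESeq2, and 2173 genes had an unadjusted p under 0.05. Of the 10 neighbours, 5 on each side, 7 could be tested. Of these edgeR and DESeq2 called 0, and 1 had an unadjusted p under 0.05. At such shares over all genes a count of 0 is near that of all genes, so nothing about the neighbours is read from it. The divergent neighbour AT3G01340, a WD40-repeat gene 143 bases away, stood at 42.5 ± 3.54 CPM in pool 2, 46.4 ± 1.93 in VP16-02-003 and 43.7 ± 0.385 in Col-0 (SD, n = 3). Its log2 fold change was -0.04 ± 0.09 (SE, edgeR adjusted p = 0.889) in pool 2 and 0.08 ± 0.09 (edgeR adjusted p = 0.514) in the line, each against the same Col-0 libraries. AT3G01350, a transporter gene of the major facilitator superfamily 4175 bases after the locus, was at 1.58 ± 0.106 CPM in pool 2, 0.926 ± 0.141 in VP16-02-003 and 1.43 ± 0.3 in Col-0.

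**Figure D2:**
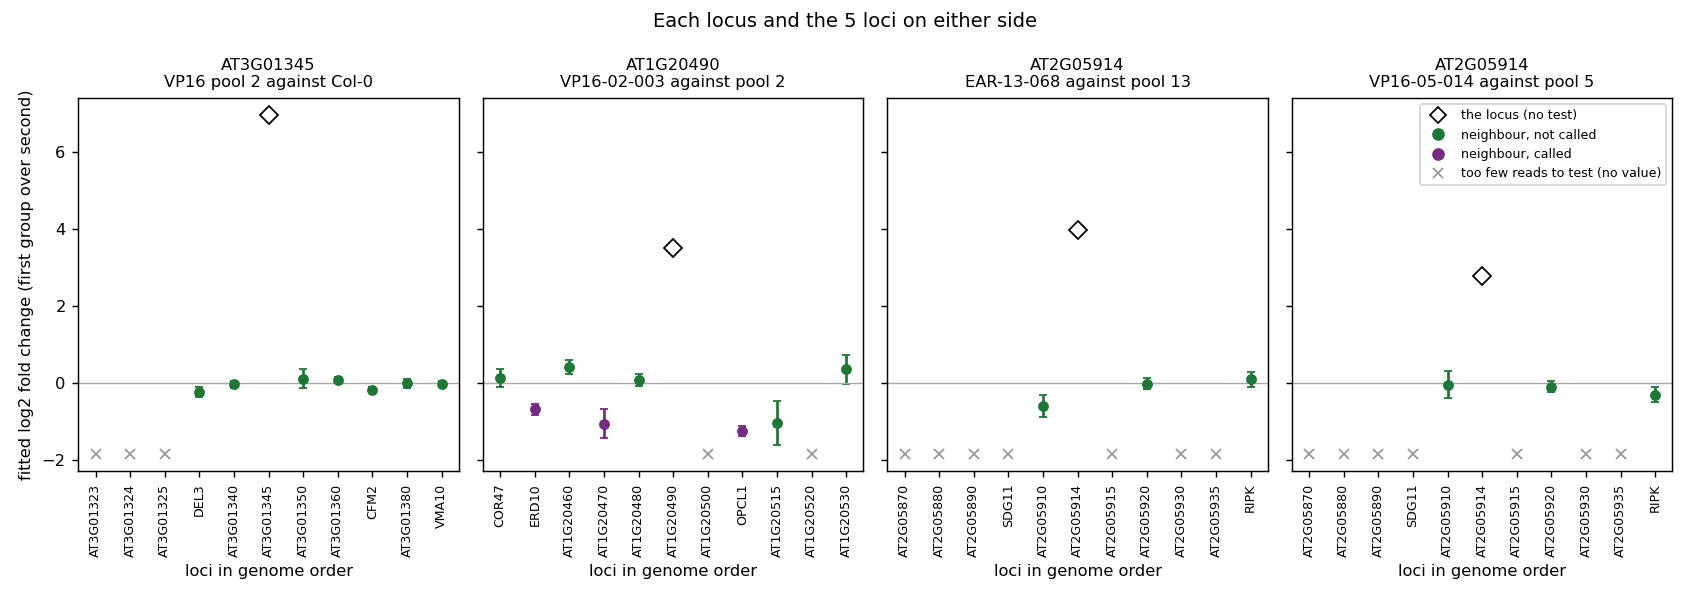
Fitted log2 fold change of each locus and of the 5 loci on either side, in genome order, in 4 comparisons. Circles are neighbours with their standard errors, purple where called by edgeR, diamonds are the loci themselves without a test, and crosses at the foot are neighbours with too few reads and no value. No neighbour of AT3G01345 or AT2G05914 was called in the panels shown, where 0.0153 to 1.5% of all genes were called. In the panel of AT1G20490, where 29.1% of all genes were called, 3 neighbours were lower.

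In VP16-02-003 against Col-0, 23.2% of 19566 genes were called, 2414 higher and 2117 lower. The 20 neighbours of AT3G01345 and AT1G20490 held 15 that could be tested, and 3 of these, 20%, were called, all lower, a share near that of all genes. The call near AT3G01345 was DEL3, an atypical E2F-family gene, 2261 bases before its start. DEL3 lay at 3.7 ± 0.192 CPM in the line and 6.15 ± 0.501 in Col-0, a log2 fold change of -0.72 ± 0.15 (SE, edgeR adjusted p = 0.00191). In VP16-02-003 against pool 2 DEL3 was at -0.48 ± 0.15 (edgeR adjusted p = 0.0212) and AT3G01350 at -0.77 ± 0.29 (edgeR adjusted p = 0.0468). The former call was lost without VP16-02-003 A, VP16-02-003 C or pool 2 C, and the latter without any 1 of the 6 libraries. Against Col-0 the count of all genes was 2926 instead of 4531 without VP16-02-003 B.

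AT3G01345 resembles loci elsewhere in the genome, and those with an entry in the count tables had few reads. Its exon gave 28 alignments elsewhere on 5 chromosomes, some of them pieces of the same locus. The longest ran over 1604 bases at 74.7% identity, at AT2G06845. Matches of 300 or more bases lay on 12 annotated genes, of which 5 have an entry in the count tables. The most reads in any library for any of the 5 was 10, for AT5G28920 in VP16-05-014 C, and AT2G06845 had 0 reads in all 30. None of these 5 passed the filter on low counts, so no test was made, and the other matches have no counts here.

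AT2G05914 was highest in EAR-13-068, a line with the repression motif, and next in VP16-05-014, a line with the activation domain. EAR-13-068 A, B and C held 360, 377 and 214 reads, or 12.5, 13.2 and 12 CPM. VP16-05-014 A, B and C held 72, 60 and 91 reads, or 5.64, 5.13 and 5.74 CPM. The groups did not overlap each other or any other group. In the other 24 libraries the level ran from 0 CPM in VP16-02-003 A through a median of 0.275 to 2.05 CPM in Col-0 C, and 6 libraries had 3 reads or fewer. The lowest library of the high groups was 2.5 times the highest of the rest, and Col-0 had up to 57 reads, so AT2G05914 was not off in all other groups.

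Col-0 followed with 57, 11 and 39 reads in A, B and C, or 1.54 ± 0.468 CPM (SD, n = 3). Pool 5 was at 0.968 ± 0.672 CPM, pool 13 at 0.796 ± 0.351, pool 15 at 0.581 ± 0.349 and pool 2 at 0.277 ± 0.177. EAR-15-053 followed at 0.222 ± 0.0274, EAR-15-025 at 0.131 ± 0.0819 and VP16-02-003 at 0.1 ± 0.117 CPM, the last from 4 reads in 3 libraries. From Col-0 down each group overlapped the next, though the ends of the order did not. All 6 libraries of EAR-15-025 and EAR-15-053 lay below the lowest Col-0 library and below all libraries of their pool 15. The lowest pool 15 library was only 1.21 and 1.11 times the highest of these lines.

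The mean of AT2G05914 in EAR-13-068 was 15.8 times that of its pool 13, and that in VP16-05-014 was 5.69 times that of its pool 5. Against Col-0 the same lines stood 8.2 and 3.58 times higher. EAR-13-068 exceeded VP16-05-014 by 2.29 times. VP16-05-014 C, the library that stood apart, had 5.74 CPM at this locus, beside 5.64 and 5.13 CPM in A and B. Per kilobase of exon the locus was at 8.87 CPM in EAR-13-068, above 54.4% of tested genes of known length, at 3.87 CPM in VP16-05-014, above 32.7%, and at 1.08 CPM in Col-0, above 13.8%.

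All 351 exonic bases of AT2G05915 lie within the exon of AT2G05914 on the other strand. AT2G05915, which encodes an uncharacterized protein, had 0 reads in all 30 libraries. The sources used here do not say whether the counting used strand, and without strand reads from a gene and its antisense partner cannot be told apart. Such reads on the shared bases may then have been set aside as ambiguous, for both genes. The 0 reads therefore do not show that AT2G05915 was silent, and the level of AT2G05914 may be too low. Which strand gave the reads of AT2G05914 is therefore uncertain.

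No tested neighbour of AT2G05914 was called where it was high, in comparisons where few genes were called at all. Between EAR-13-068 and pool 13, 46 of 19566 genes were called, 0.235%, and between VP16-05-014 and pool 5, 293, or 1.5%. The former count was 4 to 19 without EAR-13-068 B, EAR-13-068 C or any 1 pool 13 library. The latter ran from 2 without pool 5 B to 5075 without VP16-05-014 C, and was 64, 21, 124 and 60 without VP16-05-014 A, VP16-05-014 B, pool 5 A and pool 5 C. Of the 10 neighbours, 3 could be tested in each: AT2G05910, of the LURP-one-like family, AT2G05920, a subtilase gene, and RIPK, a protein kinase gene. In EAR-13-068 against pool 13, 0 of the 3 were called by edgeR or DESeq2 and 0 had an unadjusted p under 0.05. Over all 19566 genes DESeq2 called 154 there, and 2152 had an unadjusted p under 0.05. AT2G05920 was at 101 ± 4.13 against 102 ± 5.68 CPM there, a log2 fold change of -0.02 ± 0.15 (SE, edgeR adjusted p = 0.984). In VP16-05-014 against pool 5, 0 were called by edgeR or DESeq2 and 0 had an unadjusted p under 0.05. Over all 19566 genes DESeq2 called 742 there, and 3871 had an unadjusted p under 0.05. At such shares a count of 0 among 3 is near that of all genes. Without VP16-05-014 C, AT2G05920 at -0.43 ± 0.12 and RIPK at -0.61 ± 0.21 were called lower (SE, edgeR adjusted p = 0.0127 and 0.0332). The SET-domain gene SDG11 and the pseudogenes AT2G05870, AT2G05880 and AT2G05890 had 0 or 1 read in every library.

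AT2G05914 gave 29 alignments elsewhere on 5 chromosomes, some of them pieces of the same locus. The longest ran over 1441 bases at 66.6% identity, at AT3G44325. Matches of 300 or more bases lay on 4 annotated genes, and the 3 of them with an entry had at most 2 reads in a library. Of those 3, AT4G29200 and AT5G49250 are annotated as beta-galactosidase related protein. The same product name belongs to 3 of the 5 relatives of AT3G01345 with an entry: AT2G06845, AT5G35760 and AT5G01080. At 3 places the matches of AT3G01345 and of AT2G05914 lay within 5000 bases of each other. There the matches of AT2G05914 were fragments of 95, 42 and 42 bases, below the 300 bases asked of a relative.

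The 3 genes most alike to AT2G05914 were ARC5, ABCI20 and AT1G15260, each with a Pearson r of 0.65 over 30 libraries. ARC5, a dynamin-related gene of chloroplast division, lay at 153 to 192 CPM in the 6 high libraries and 132 to 179 CPM in the others. The ranges overlapped in all 3, and none of the 3 separated the high libraries from the others. Correlation with AT3G01345 was -0.33 and with AT1G20490 -0.28.

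AT1G20490 was high in VP16-02-003 and low, but never without reads, elsewhere. VP16-02-003 A, B and C held 425, 498 and 474 reads, or 33.4, 35.3 and 36.2 CPM. The other 27 libraries held 35 to 149 reads, from 2.67 CPM in pool 5 A through a median of 3.82 to 5.98 CPM in VP16-05-014 B. The lowest library of the line was 5.59 times the highest of the rest. With reads in all 30 libraries the locus was not switched off in any group.

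The pool 2 background, which shares the number of VP16-02-003, had the lowest mean of AT1G20490. Pool 2 A, B and C held 91, 102 and 65 reads, or 3.16, 2.88 and 3.16 CPM. The line stood at 35 ± 1.41 CPM and pool 2 at 3.06 ± 0.163 CPM (SD, n = 3), a ratio of 11.4, against 3.18 for AT3G01345 in the same groups. Between them came VP16-05-014 at 4.97 ± 1.73 CPM, EAR pool 15 at 4.72 ± 0.414, EAR-15-025 at 4.68 ± 0.121, EAR-13-068 at 3.92 ± 0.762, EAR-15-053 at 3.9 ± 0.657, EAR pool 13 at 3.74 ± 0.392, Col-0 at 3.53 ± 0.248 and pool 5 at 3.2 ± 0.48 CPM. Below the line each group overlapped the next. Within VP16-05-014, replicates A and B lay at 5.95 and 5.98 CPM and C at 2.97 CPM, among the pool 5 libraries at 2.67 to 3.6 CPM. Per kilobase of exon AT1G20490 was at 15.8 CPM in VP16-02-003, above 70.6% of tested genes, and at 1.39 CPM in pool 2, above 16.1%.

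AT1G20490 stands in a row of 4 adjacent family members on the minus strand, and of the others the 2 that could be tested were not called higher in the same line. In VP16-02-003 against pool 2, 29.1% of 19566 genes were called, 2987 higher and 2707 lower. AT1G20480, 63 bases away, was at 2.46 ± 0.105 CPM in the line and 2.32 ± 0.357 in pool 2, a log2 fold change of 0.08 ± 0.15 (SE, edgeR adjusted p = 0.809). AT1G20500, 609 bases away on the other side, had 0 or 1 read in each of the 30 libraries. OPCL1, which activates the jasmonate precursor OPC-8:0, fell from 99.2 ± 5.59 to 41.8 ± 6.21 CPM. Its log2 fold change was -1.25 ± 0.13 against pool 2 (SE, edgeR adjusted p = 5.97e-07) and -1.51 ± 0.13 against Col-0, where it lay at 120 ± 9.3 CPM (edgeR adjusted p = 2.1e-08). The line thus had the highest AT1G20490 and the lowest OPCL1 of the 10 groups. Without VP16-02-003 B the count of all genes called was 3756 instead of 5694.

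**Figure D3:**
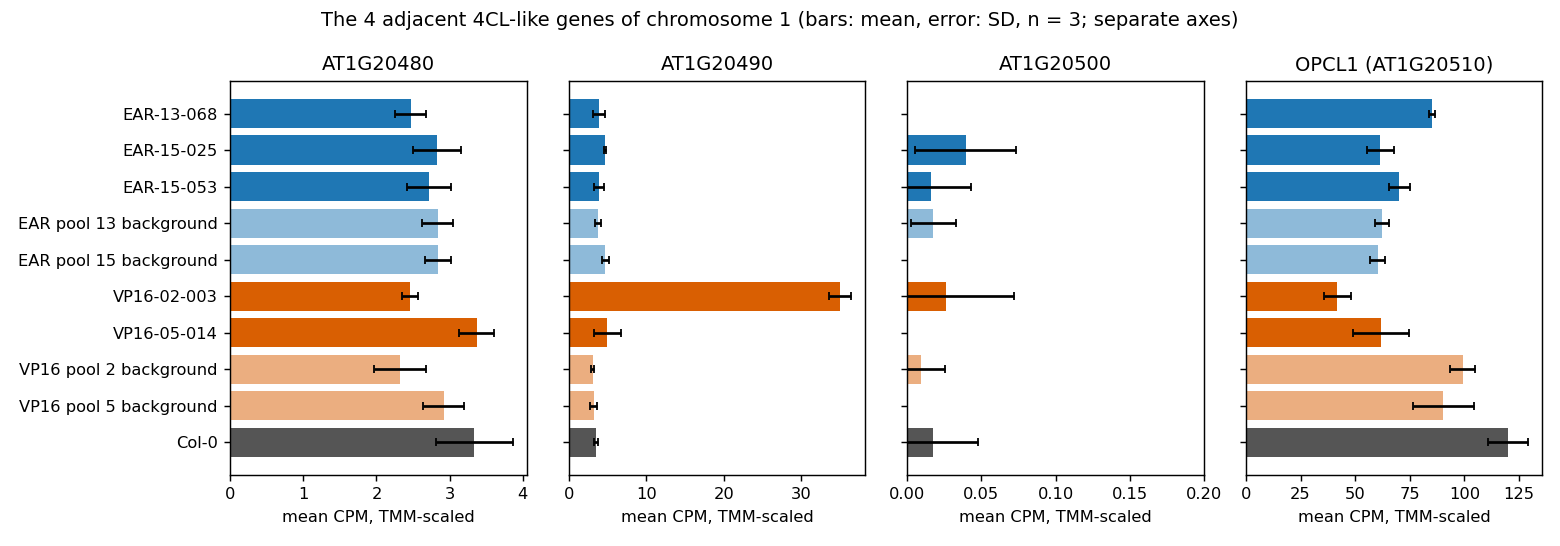
Mean TMM-scaled CPM of the 4 adjacent family members of chromosome 1 in each group, with the SD over 3 libraries as error and a separate axis for each gene. AT1G20490 is at 35 CPM in VP16-02-003 and at 3.06 to 4.97 CPM elsewhere, while OPCL1 is at its lowest, 41.8 CPM, in the same line and AT1G20500 stays at 0 or 1 read per library.

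Of the 10 neighbours of AT1G20490, 8 could be tested against pool 2 and 3 of these, 37.5%, were called, all lower, a share near the 29.1% of all genes. Besides OPCL1 these were ERD10, a dehydrin gene, and AT1G20470, a SAUR-like auxin-responsive gene. ERD10 was at 81.5 ± 7.6 against 131 ± 1.47 CPM, a log2 fold change of -0.69 ± 0.15 (SE, edgeR adjusted p = 0.00187). AT1G20470 was at 1.16 ± 0.157 against 2.39 ± 0.676 CPM and -1.06 ± 0.38 (SE, edgeR adjusted p = 0.0367), a call lost without VP16-02-003 A, B or C, pool 2 A or pool 2 B, with adjusted p up to 0.126 over its alternatives. COR47, another dehydrin gene next to ERD10, was at 96.3 ± 11.7 against 88.9 ± 14.4 CPM and 0.12 ± 0.23 (SE, edgeR adjusted p = 0.739).

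Sequence relatives could share reads with AT1G20490. The counts hold a separate entry for alignments that were not unique, among the 5 entries that name no gene and were left out. Beyond that entry, the sources used here do not say how reads that map to several places were treated. Its closest relatives were AT1G20500 at 85.3% identity over 1234 bases, 4CL8 on chromosome 5 at 74.4% over 1248, OPCL1 at 71% over 1207 and AT1G20480 at 69.5% over 645. None of the 3 that could be tested was called higher in VP16-02-003. 4CL8 fell to 0.529 CPM in VP16-02-003 from 3.17 CPM in pool 2, a log2 fold change of -2.58 ± 0.50 (SE, edgeR adjusted p = 0.000658).

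The 4CL list comprised 12 enzymes of the family without AT1G20490, of which 10 could be tested. In VP16-02-003 against pool 2, 6 of the 10, or 60%, were called, all lower, beside 29.1% of all genes. Their median log2 fold change was -0.43 over the 10, beside 0.01 over all genes. Apart from 4CL8 and OPCL1 the calls were 4CL3, of the flavonoid branch, at -1.62 ± 0.43 (SE, edgeR adjusted p = 0.00781), 4CL1 and 4CL2, of the lignin branch, at -0.63 ± 0.15 and -0.75 ± 0.22 (edgeR adjusted p = 0.00322 and 0.0133), and 1 of smaller change. The call of 4CL2 was lost without VP16-02-003 B or pool 2 B. Against Col-0, 6 of 10 were called in the same line, 2 higher and 4 lower, beside 23.2% of all genes. Of the higher ones 4CL5 changed more, at 0.98 ± 0.24 (SE, edgeR adjusted p = 0.00523). Without VP16-02-003 A 3 of 10 were called, beside 3376 of 19737 genes. In pool 2 against Col-0 edgeR and DESeq2 called 0 of 10, beside 0.0153% of all genes by edgeR and 104 genes by DESeq2. An unadjusted p under 0.05 was found for 3 of them, beside 2173 of 19566 genes. In EAR-13-068 against pool 13, 0 were called by edgeR, beside 0.235% of all genes, and 1 by DESeq2, beside 154 of 19566 genes. There 3 had an unadjusted p under 0.05, beside 2152 of 19566 genes. In VP16-05-014 against pool 5, where 1.5% of all genes were called, OPCL1 alone was called, at -0.54 ± 0.13 (edgeR adjusted p = 0.0336), a call lost without VP16-05-014 A, VP16-05-014 B, pool 5 A or pool 5 B, while 4 of 10 were called without VP16-05-014 C, 1 higher and 3 lower, beside 5075 of 19751 genes.

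The genes most alike to AT1G20490 were AT1G21080, AT2G36560 and AT2G33420, each with a Pearson r of 0.96 over 30 libraries, which rests on the 3 libraries of VP16-02-003. AT1G21080, a DNAJ-domain chaperone gene, was at 77.8 ± 6.35 CPM in the line (SD, n = 3) and at 31.6 to 43.5 CPM in the other 27 libraries. AT2G36560, which encodes an AT-hook DNA-binding protein, had 59, 59 and 58 reads in the line and 1 read in the 27 others together. AT2G33420, of the DUF810 family, was at 0.85 to 1.1 CPM in the line and at most 0.0855 CPM elsewhere. AT1G20490 and AT3G01345, both high in VP16-02-003, had an r of 0.65, and pool 2 was high for AT3G01345 and lowest for AT1G20490.

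Genes of DNA methylation and silencing were followed as the textbook machinery that acts on repeat-like loci. The list also holds demethylases such as DML2 and DME, which remove methylation, so its counts and medians mix opposite functions. DNA methylation itself was not measured. All 30 genes of the list could be tested. In pool 2 against Col-0, where AT3G01345 was high, 0 were called by edgeR or DESeq2, beside 0.0153% of all genes called by edgeR. An unadjusted p under 0.05 was found for 1 of them, beside 2173 of 19566 genes, and the median log2 fold change was 0.03, beside -0.01 over all genes. In EAR-13-068 against pool 13, where AT2G05914 was high, 0 were called by edgeR or DESeq2, beside 0.235% of all genes, 2 had an unadjusted p under 0.05, beside 2152 of 19566 genes, and the median was 0.01. At such shares a count of 0 is near that of all genes. In VP16-05-014 against pool 5, 0 were called by edgeR, beside 1.5% of all genes, and 1 by DESeq2, beside 742 of 19566 genes. An unadjusted p under 0.05 was found for 5 of them, beside 3871 of 19566 genes. These counts are near the shares of all genes. The median was -0.12, beside 0.00 over all genes. Without VP16-05-014 C edgeR called 10 of the 30, 1 higher and 9 lower, beside 5075 of 19751 genes.

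**Figure D4:**
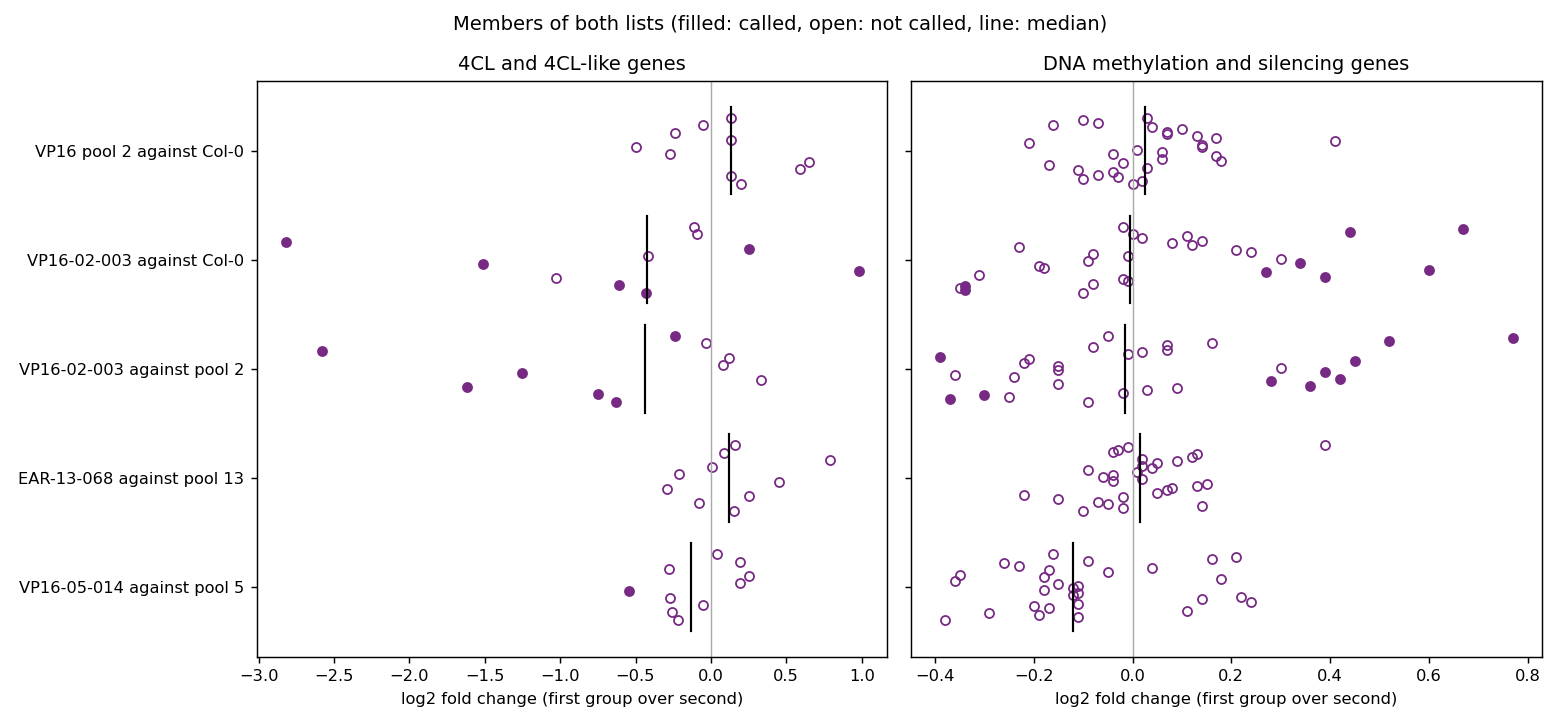
Log2 fold change of the tested 4CL and silencing genes in 5 comparisons, filled where called by edgeR, with the median of each list as a bar. The 6 called 4CL genes of VP16-02-003 against pool 2 all lie below 0, and no silencing gene is called in pool 2 against Col-0, EAR-13-068 against pool 13 or VP16-05-014 against pool 5.

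In VP16-02-003 against pool 2, 10 of the 30 silencing genes were called, 33.3% beside 29.1% of all genes, 7 higher and 3 lower. Without VP16-02-003 C 6 were called. The higher ones included DML2, a DNA demethylase, at 0.77 ± 0.16 (SE, edgeR adjusted p = 0.00161), SUVH2, which binds methylated DNA, at 0.42 ± 0.10 (edgeR adjusted p = 0.00369), and DME, another demethylase, at 0.52 ± 0.15 (edgeR adjusted p = 0.0127), the last lost without pool 2 C. The chromatin remodeller DRD1 of RNA-directed methylation was at 0.45 ± 0.14 (edgeR adjusted p = 0.0233), lost without VP16-02-003 C, pool 2 A or pool 2 C. Among the lower ones RDM1, of the same pathway, was at -0.39 ± 0.12 (edgeR adjusted p = 0.0214), lost without VP16-02-003 B, VP16-02-003 C or pool 2 B. Against Col-0, 8 of 30 were called, 26.7% beside 23.2%, a share near that of all genes. That count was 3 without Col-0 A, 4 without VP16-02-003 A or C and 5 without VP16-02-003 B or Col-0 B.

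SDC, FWA and QQS are known for silencing by DNA methylation or for heritable variation in it. FWA had too few reads to be tested, and neither SDC nor QQS was called higher in any of the 5 comparisons. SDC, an F-box gene, was at 0.125 ± 0.043 CPM in VP16-02-003 and 0.698 ± 0.142 in pool 2, a log2 fold change of -2.45 ± 0.53 (SE, edgeR adjusted p = 0.00192). The level in the line rests on 5 reads in 3 libraries, each under the floor of 3 reads, so this change is imprecise. In pool 2 against Col-0 SDC was at 1.04 ± 0.38 (edgeR adjusted p = 0.317). QQS, a gene of starch metabolism, was at 1.72 ± 0.726 against 3.91 ± 1.48 CPM and -1.20 ± 0.36 in VP16-02-003 against pool 2 (edgeR adjusted p = 0.0173), a call lost without VP16-02-003 B or pool 2 A. FWA had 0 or 1 read in every library.

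Near on/off contrasts were rare in these libraries. A gene was counted where the lowest library of a group was at 1 CPM or more and at least 8 times the highest library of another. For any pair of groups 36 of 32679 entries, 0.11%, met this, the 3 loci among them by their choice. AT3G01345 met it in 16 of the 90 ordered pairs, AT2G05914 in 11 and AT1G20490 in 4. These numbers depend on how many groups were high and come from the counts that chose the loci, so nothing is read from them. In pool 2 against Col-0 2 entries met it, 0.00612%, AT3G01345 and VP16. In EAR-13-068 against pool 13 AT2G05914 alone met it, 0.00306%, and in VP16-05-014 against pool 5 no entry did, 0%, since there its lowest library was 3.47 times the highest of the pool. In VP16-02-003 against pool 2 4 entries met it, 0.0122%, AT1G20490 at 10.6 times among them.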

How the data were processed

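Transcript levels were measured by RNA sequencing of shoots stored in RNA Later, with standard Illumina libraries, per the labels. Each library has its own deposited table of raw read counts per gene. The submitters' processing notes name TopHat2 2.0.5, HTSeq and TAIR10, with no role or order; the sources used here do not give the counting mode, the use of strand or the annotation release. The 5 entries that name no gene were left out of library sizes; reads on no feature were 0.765 to 1.94% and ambiguous reads 1.32 to 1.48%. TAIR10.1 supplied names and positions for 31912 matched entries.

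The counts were fitted in R 4.3.3 with edgeR 4.0.16: filterByExpr with a minimum count of 10, TMM scaling, a quasi-likelihood model over all 30 libraries without covariates, and Benjamini-Hochberg adjustment over 19566 genes. The code was tested on simulated data. The members, lists and tests were chosen with earlier results of these data known. Genes named were the 3 loci, 5 neighbours on each side, sequence relatives, the 3 most alike genes, up to 5 called list genes per comparison, SDC, FWA, QQS and VP16. Other names are said to be chosen after their values were seen. Protein relatives were not used here; blastn 2.17.0 of exons against the genome replaced them, with matches of at least 300 bases. Alternatives were DESeq2 1.42.0, other scalings, no filter, organelle genes left out, only 6 libraries, a replicate block, and libraries left out. Figures used Python 3.11.15 and matplotlib 3.10.9.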

Additional observations from a re-analysis of the deposited data

Results flagged for a closer look

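AT2G05914 went in opposite directions from pool to line in different lines. Every library of EAR-13-068 lay above every library of pool 13, with a log2 ratio of mean CPM of 3.98, and every library of VP16-05-014 lay above every library of pool 5, with 2.51. Every library of EAR-15-025 and of EAR-15-053 lay below every library of pool 15, with ratios of -2.15 and -1.39. The low groups rest on 7 and 15 reads in 3 libraries each, and pool 15 A, B and C on 18, 10 and 5 reads. The lowest pool 15 library was only 1.21 and 1.11 times the highest of EAR-15-025 and EAR-15-053, so a few reads make this separation. The difference between these effects was not tested, because the locus was chosen for its counts.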

How the results depend on the processing

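Of 90 group means of the 3 loci under another scaling 3 moved by 1 SD or more, and no mean changed by more than 4.26%. Leaving out 1 library moved 0 of 90 means by 1 SD or more, a limit that leaving out 1 of 3 libraries cannot reach. In percent some means moved further. AT3G01345 in pool 2 went from 77.3 CPM to 57.2 without A or 99.5 without C. In EAR-15-025 it went from 0.162 to 0.0546 without B, and in EAR pool 15 from 0.176 to 0.0778 without A. AT2G05914 in VP16-02-003 went from 0.1 to 0.0354 without C. Counts of all genes called moved more. Without the 4 libraries standing apart (VP16-05-014 C, EAR-15-053 C, EAR-13-068 C and EAR-15-025 A) pool 2 against Col-0 gave 819 genes and 1 silencing gene, EAR-13-068 against pool 13 gave 295 genes and 1 4CL gene, and VP16-05-014 against pool 5 gave 5727 genes, 2 neighbours, 11 silencing and 5 4CL genes. With DESeq2 the same 3 comparisons gave 104, 154 and 742 genes, with 1 4CL gene in EAR-13-068 and 1 silencing and 2 4CL genes in VP16-05-014. With only the 6 libraries of the comparison, EAR-13-068 gave 1 4CL gene and VP16-05-014 0 genes and 0 4CL genes.

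Leaving out 1 library gave 2 to 93 genes in pool 2 against Col-0, 2926 to 3809 in VP16-02-003 against Col-0, 3756 to 4779 against pool 2, 4 to 40 in EAR-13-068 and 2 to 5075 in VP16-05-014 against their pools. Silencing genes ran from 3 to 6 and from 6 to 9 in VP16-02-003 against Col-0 and pool 2, and from 0 to 10 in VP16-05-014. 4CL genes ran from 3 to 6 in VP16-02-003 against Col-0 and from 0 to 4 in VP16-05-014, and neighbours there from 0 to 2. The cause was not tested.

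Like replicate letters did not pair the libraries: deviations of same-lettered libraries correlated at -0.38 to 0.187 and in no comparison were all 3 over 0.1. With the letter as a replicate block the 5 comparisons called 4, 4410, 5558, 48 and 232 genes. As few as 0 to 3 reads lie behind several low levels of AT3G01345 and AT2G05914, so those levels are imprecise.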

Other observations

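Against every other library 2 entries, 0.00612%, met the on/off rule, both in VP16-02-003 and neither of them among the 3 loci. AT2G36560, the AT-hook gene, had 176 reads in that line, at 4.18 to 4.64 CPM, and 1 read in the 27 other libraries. AT5G59620, an uncharacterized gene named after its values were seen, had 37, 43 and 50 reads in VP16-02-003 A, B and C and 8 reads in the 27 others. Both had 0 reads in pool 2, unlike AT3G01345, which was high there. AT5G43030, of the C1-domain family and also named after its values were seen, met the rule against pool 2, at 1.22 to 2.12 CPM in the line and at most 0.0694 CPM in the pool.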
